A study of Mus musculus with 12 samples.

Results

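Translation efficiency (TE) was measured in the brains of the vehicle-treated mice A and B for 10882 of the 20504 genes in the deposited table of reads on coding sequences (CDSs). A gene was included when its ribosome footprints and its RNA-Seq counts each summed to at least 75 over both mice. The 4 libraries used were a footprint library and a poly(A) RNA-Seq library from each mouse, so that both assays were paired within an animal.

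Ribosome profiling sequences the short mRNA fragments that a ribosome protects from nuclease. The number of footprints on a CDS depends on how much mRNA is present and on how many ribosomes each mRNA carries, and TE divides the footprints by the RNA-Seq reads of the same gene to leave the ribosome load per mRNA. It is known to be set mainly by how often initiation succeeds, and it is also affected by elongation speed, by upstream reading frames and by mRNA that is held in granules or in the nucleus. Neurons are known to store and transport mRNAs and to translate some of them in dendrites and axons.

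The series holds 12 libraries from 6 adult mice (3 months old), all of which carried Camk2a-driven Cre recombinase and the RiboTag allele, which adds an HA tag to the ribosomal protein Rpl22 in Camk2a-expressing principal neurons. Mice A and B, called untreated in the labels and vehicle-treated in the study's methods, received the carrier Captisol by gavage. Mice C and D received 100 mg/kg of AZD-8055, which inhibits the kinase mTOR, 1 h before collection, and mice E and F gave RNA-Seq of homogenized brain (input) and of HA-immunoprecipitated polysomes (IP). Footprints and RNA-Seq of mice A to D came from whole lysate of a frontal lobe, with no use of the tag, so TE describes all brain cells together. In such bulk tissue, fewer cells of a type and less RNA per cell cannot be told apart.

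Footprints on CDSs totalled 9259938 (mouse A) and 4551357 (mouse B), and RNA-Seq counts on CDSs totalled 9395385 and 9891860. All 29 markers of neurons, glia and endothelium in the marker lists had a TE, whereas none of 6 markers of liver, heart, pancreas and skin did. The highest of these was Myh6, the cardiac myosin heavy chain, with 31 and 112 RNA-Seq counts. The log2 TE of a gene is given as its value in mouse A and then in mouse B, or as the mean of both, and 0 is close to the median of all genes (0.02). A gene was called high or low in TE when edgeR's quasi-likelihood test of footprints against RNA-Seq, blocked by mouse, gave a Benjamini-Hochberg adjusted p under 0.05 and a fitted log2 TE over 1 or under −1. TE is relative to the average of the libraries, so the calls do not state how many ribosomes an mRNA carried.

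A total of 1260 genes were high and 1703 were low, 11.6% and 15.6% of the genes tested, and the other 7919 were neither. Of the high genes, 1117 had a log2 TE over 1 in each mouse separately, and 1453 of the low genes lay under −1 in each. The high genes held 21.5% of all footprints on CDSs and 8.02% of the RNA-Seq counts. The low genes held 6.29% of the footprints and 21.5% of the RNA-Seq counts. The lowest mean among the high genes was 1.01, and the highest mean among the low genes was −0.93.

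**Figure D1:**
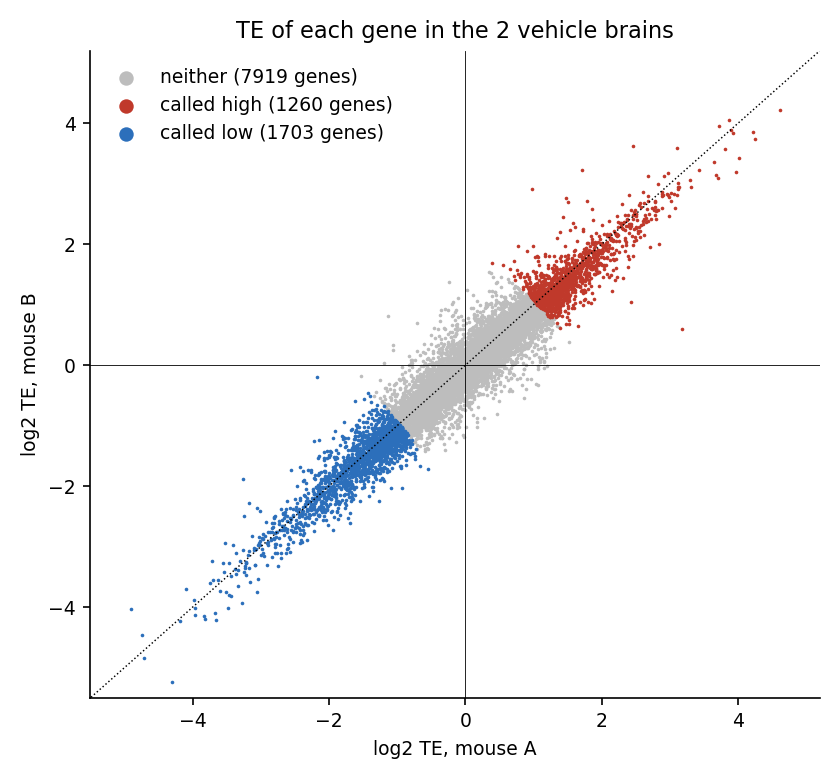
The log2 TE of 10882 genes in mouse A (x axis) and mouse B (y axis), with the 1260 genes called high in red, the 1703 called low in blue and the other 7919 in grey. The dotted line marks equal values, and genes of both ends keep to it across the range from Map3k10 (−4.72 and −4.84) to Grin2b (4.62 and 4.23).

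The end at which a gene lay moved with how its RNA-Seq reads were spread over the mRNA. Reads on exons include those on untranslated regions (UTRs). The ratio of exon to CDS counts can be read from the RNA-Seq input of mice E and F, whose libraries played no part in the TE. It divides by RNA-Seq counts on CDSs, as TE does, so the ratio and TE are not independent measures. This log2 ratio had a median of 1.52 among the high genes (quartiles 0.82 and 2.12), 0.33 among the low genes and 0.59 among the rest. From the lowest to the highest decile of genes by TE it rose from 0.32 to 1.56, with a Spearman's rho of 0.393 across 10863 genes, which share libraries and are not independent. In mice A and B, 72.6% of the high genes had over 2 exon counts for each CDS count, against 12.9% of the low genes and 33.4% of all genes.

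When RNA-Seq was counted over exons in place of CDSs, 420 of the 1260 high genes kept a log2 TE over 1 and 348 lay under 0. Of the 1703 low genes, 1045 stayed under −1 and 23 lay over 0. The low end moved less than the high end, with 61.4% against 33.3% of its genes still more than 2-fold from 0. A CDS ratio cancels the length of the CDS, whereas an exon count grows with the length of the UTRs, and no file here holds transcript lengths. The part that UTR length and uneven read coverage had in the TE was not tested, and exon-based values are given beside many of the genes and lists below. Exon counts were lower than the CDS counts in 241 genes, among them Map3k15, Hnrnpa1 and Atp6v0c, and the exon-based values of these genes are uncertain. Exon counts totalled 1.75 times the CDS counts in both mice. The exon measure has its own size factors (median ratio over the 8 libraries of mice A to D). A gene whose exon counts equal its CDS counts therefore moves up on it.

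**Figure D2:**
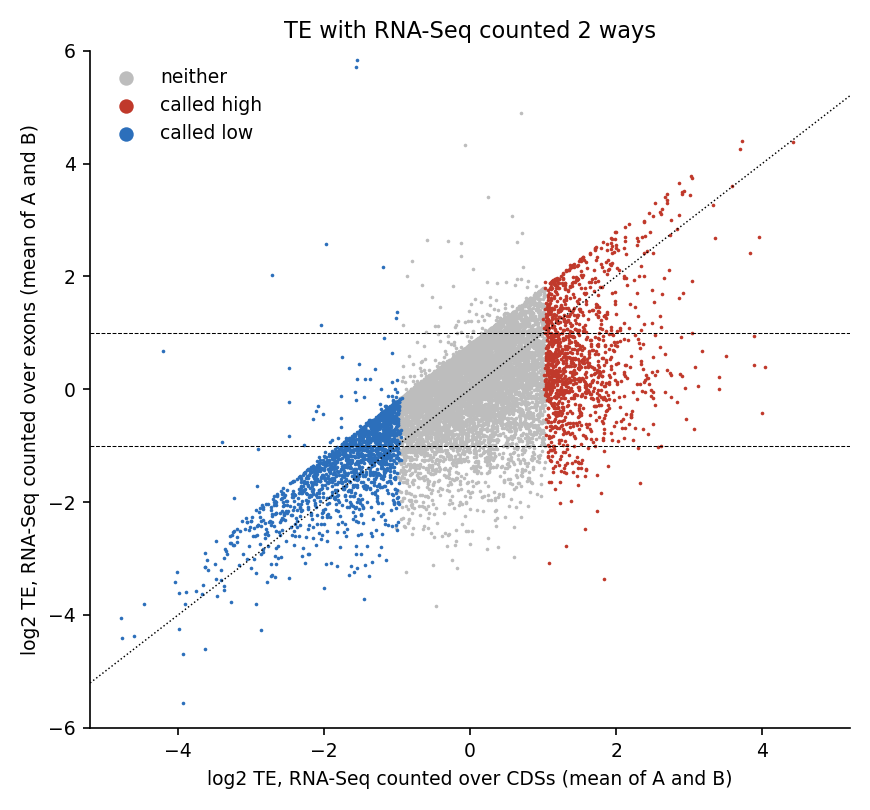
The log2 TE of 10864 genes with RNA-Seq counted over CDSs (x axis) and over exons (y axis), each the mean of mice A and B, in the same colours. High genes spread downward from the dotted line of equal values, with 420 of 1260 above the upper dashed line at 1, while 1045 of 1703 low genes stay below the lower dashed line at −1.

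At the high end, the 15 genes with the highest mean lay between 3.33 (Lnpep) and 4.42 (Grin2b), and the largest adjusted p among them was 2.38e-10 (edgeR). Grin2b encodes GluN2B, an NMDA receptor subunit, and lies on chromosome 6 from 135713221 to 136173615 of GRCm38 (mm10). It had 2402 and 1109 footprints in mice A and B against 108 and 135 RNA-Seq counts on the CDS, so its value rests on few RNA-Seq reads. Its log2 TE was 4.62 and 4.23, a mean 21.5 times the library average, and 4.38 over exons. Both mice put it above every other gene.

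Among the other genes were a receptor and 3 transporters of the membrane. Erbb4, the neuregulin receptor (chromosome 1, 68031884 to 69108576), had 829 and 425 footprints and 57 and 90 RNA-Seq counts, and its log2 TE was 4.01 and 3.43. Slc8a1, the sodium-calcium exchanger NCX1, had 3.90 and 3.89, and Slc5a3, a myo-inositol transporter, had 3.71 and 3.10. Slc1a2, the main glutamate transporter of astrocytes, combined 22396 and 10170 footprints with 1948 and 2613 RNA-Seq counts, and its log2 TE was 3.67 and 3.15. Over exons the 4 genes diverged, and of the 4 only Erbb4 stayed over 1. Erbb4 had 4.40, Slc8a1 0.95, Slc5a3 0.22 and Slc1a2 0.00, and Slc1a2 was then at the level of an average gene.

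The other high extremes were enzymes, adaptors and transcription factors. Dpysl2 (CRMP2), which binds tubulin in growing axons, had 11479 and 5722 footprints for 868 and 788 RNA-Seq counts, and its log2 TE was 3.87 and 4.05 (2.69 over exons). Klhl11, a Kelch-domain adaptor of ubiquitin ligases, had 3.81 and 3.58 (4.26 over exons), Lnpep, the insulin-regulated aminopeptidase, had 3.43 and 3.24 (3.27), and the phospholipase-related Plcxd3 had 3.97 and 3.19 (3.60). The nuclear receptor Rorb had 4.22 and 3.86, the fucosyltransferase Fut9 4.25 and 3.74, the guanylate cyclase subunit Gucy1a2 3.93 and 3.85 and the kinase Pak3 3.65 and 3.35. These 4 had a log2 exon to CDS ratio of 2.90 to 4.34 in the inputs, and their exon-based values were 0.40, −0.43, 0.43 and 0.59. Tmem245 had 3.72 and 3.95 (2.42 over exons) and the transcription factor Zfhx3 3.10 and 3.60 (2.68). In all, 8 of the 15 stayed over 1 with exon counts.

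At the low end, the 15 genes with the lowest mean lay between −4.78 and −3.67, with a largest adjusted p of 1.91e-12 (edgeR). Map3k10, a mixed lineage kinase upstream of JNK (chromosome 7, 27656375 to 27674630), had 115 and 54 footprints for 3359 and 3535 RNA-Seq counts, and its log2 TE was −4.72 and −4.84. Its exon counts were close to its CDS counts, and its exon-based value was −4.06. Zfp523, a zinc finger protein, had 66 and 18 footprints for 1442 and 1557 RNA-Seq counts and a log2 TE of −4.30 and −5.25. Mice A and B differed more for it than for Map3k10, and both lay far under the average.

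The remaining low extremes included kinases, regulators of GTPases and nuclear proteins. Kifc2, a minus-end-directed kinesin, had 471 and 241 footprints on 8135 and 8831 RNA-Seq counts and a log2 TE of −3.96 and −4.01. Arhgef25, an exchange factor for RhoA, had −3.96 and −4.13, Rasl10b, a Ras-like GTPase, −3.98 and −3.88, Cdk16, a cyclin-dependent kinase, −3.74 and −3.60, and Ppp1r16a, a regulatory subunit of protein phosphatase 1, −3.68 and −4.09. Among nuclear proteins, Cenpb, which binds centromeric DNA, had −3.48 and −4.01 and Mllt6 −3.66 and −4.21. Fam193b (−4.74 and −4.46), Lrrc45 (−4.91 and −4.02), Leng8 (−3.84 and −4.14) and Tmcc2 (−4.09 and −3.71) complete the group together with Erdr1 (−3.82 and −4.20), whose repeated gene copies make its counts uncertain, and Map3k15 (−4.19 and −4.22). Map3k15 had 1112 and 1193 RNA-Seq counts on its CDS but 54 and 84 over its exons, so its call depends on which of the tables is right. The other 14 stayed under −1 with exon counts. In the treated mice C and D, all 30 extreme genes were again more than 2-fold from 0 on the same side.

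**Figure D3:**
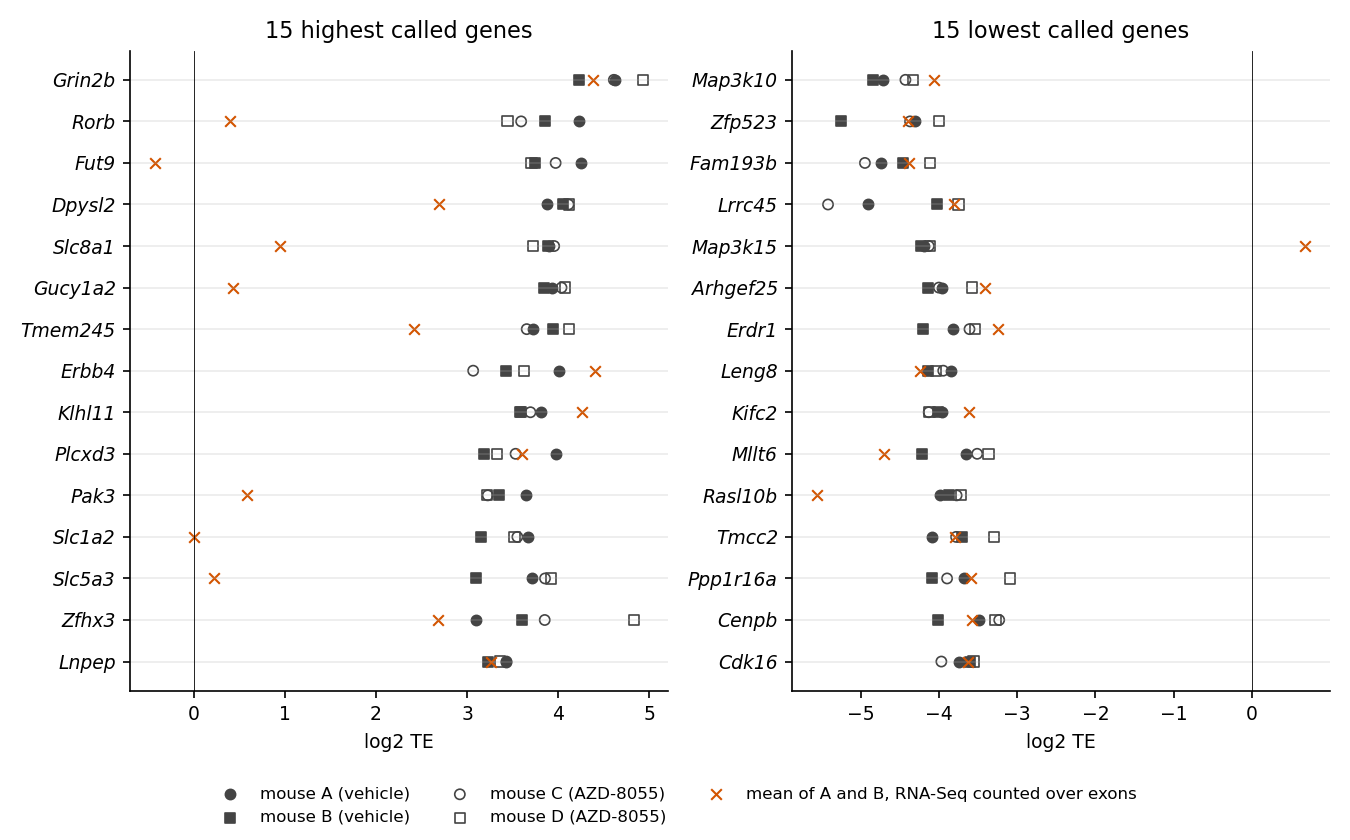
The log2 TE (x axis) of the 15 highest (left) and 15 lowest (right) called genes in mice A and B (filled) and in the AZD-8055-treated mice C and D (open), with crosses for the mean of A and B when RNA-Seq was counted over exons. All values of the 4 mice lie beyond 1 on the left and under −1 on the right, while the crosses of 7 genes on the left lie under 1 and that of Map3k15 on the right lies over 0.

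None of these extremes was among the genes that took most footprints. The 15 richest held 5.34% of all footprints, and 6 of them were high and 0 low. Hspa8, a constitutive chaperone, led with 55918 and 25493 footprints and a log2 TE of 0.46 and 0.51. The amyloid precursor App had 0.85 and 0.93, the matrix protein Sparcl1 0.48 and 0.28, the lysosomal precursor Psap 0.63 and 0.60, carboxypeptidase E (Cpe) 0.20 and 0.06 and creatine kinase Ckb 0.21 and 0.19. The chaperone genes Hsp90aa1 (0.85 and 0.96) and Hsp90ab1 (0.22 and 0.28) were not called. The high members included Ywhaz, a 14-3-3 protein (2.25 and 2.36), the calmodulin gene Calm2 (1.08 and 1.16), the clathrin heavy chain Cltc (1.87 and 1.84), the SNARE protein Snap25 (1.27 and 1.35) and the pump subunit Atp1b1 (1.16 and 1.16). With exon counts Snap25 and Calm2 had 0.53 and 0.95, while Cltc had 2.25, Ywhaz 1.30 and Atp1b1 1.07.

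Neurotransmitter receptors and the other functional groups below come from 92 gene lists, and counts in a list are to be read beside the 11.6% high and 15.6% low of all genes. From each list the highest gene, the lowest and the one with most footprints were named, and further members were chosen after their values were seen. The GABA-A receptor, a pentameric chloride channel of inhibitory synapses, had 12 subunit genes with a TE, of which 8 were high and 0 low, with a median of 1.53. The beta subunits Gabrb1 (3.11 and 2.91) and Gabrb2 (2.98 and 2.82) and the gamma subunits Gabrg3 (2.79 and 2.48) and Gabrg1 (1.44 and 1.00) were high. Alpha subunits were mixed. Gabra2 (1.70 and 1.46) was high, Gabra3 (0.68 and 0.67) and Gabra4 (0.42 and 0.50) lay between 0 and 1, and Gabra5, an extrasynaptic subunit, had −0.25 and −0.13. Gabrd, the delta subunit of extrasynaptic receptors, had −0.11 and −0.12. With exon counts the median of the subunits was 0.51, and 5 of the 8 high subunits stayed over 1. Gabrb1 and Gabrb2 then had 3.45 and 0.24.

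Ionotropic glutamate receptor genes occupied both ends. Of 17 subunits, 4 were high and 4 low, and their SD of 1.74 was larger than the 0.99 of all genes. Among NMDA receptor genes, Grin2b and Grin2a (2.67 and 2.71) were high, the obligatory subunit Grin1 had 0.45 and 0.48, Grin2d (−0.82 and −1.28) and Grin2c (−2.40 and −2.49) were low, and Grin3a had 0.47 and 0.34. Kainate receptor genes also differed. Grik5 (−2.80 and −2.87) and Grik1 (−1.16 and −1.02) were low, and Grik3 had 0.72 and 0.71. AMPA receptor genes lay closer together, with Gria3, the high one, at 1.04 and 1.04, Gria2 at 1.03 and 0.92, Gria4 at 0.52 and 0.37 and Gria1 at 0.41 and 0.36. The delta-type receptor Grid1 had −0.63 and −0.70. Also not called were Grik2 (0.23) and Grik4 (−0.89). Exon counts gave the list a median of −0.02, with 3.47 for Grin2a, −1.86 for Grin2c and −2.32 for Grik5. Grin2a is a high gene with few exon counts beyond its CDS counts, with a log2 exon to CDS ratio of 0.01 in the inputs. The annotation is not given in the sources used here, so reads on UTRs that it omits would not be counted.

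The metabotropic glutamate receptors had a median of 0.35 over 7 genes, with Grm5 (1.40 and 1.29) and Grm3 (1.52 and 1.07) high and Grm4 (−1.18 and −1.20) low. Grm2, Grm7 and Grm8 were not called, with means of −0.39, 0.35 and 0.12. Receptors for monoamines, acetylcholine and adenosine had a median of 0.13, and 4 of 18 were high and 2 low. They ran from the dopamine receptor Drd2 (−2.06 and −1.83) to the muscarinic receptor Chrm2 (2.00 and 2.00), and Chrm1, the richest in footprints, lay at −0.02 and 0.09. With exon counts their median was −0.17.

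Among ion channels, the calcium channel subunits had a median of −0.69 with 3 high and 6 low of 21. The high genes were the auxiliary subunit Cacna2d1 (2.51 and 2.47), the R-type pore Cacna1e (2.43 and 2.33) and the beta subunit Cacnb4 (1.57 and 1.58). The low genes were the T-type pores Cacna1g (−2.22 and −2.33) and Cacna1h (−1.60 and −1.63), the beta subunit Cacnb3 (−1.75 and −1.90), the gamma subunits Cacng2 (−1.42 and −1.39), which traffics AMPA receptors, and Cacng7 (−2.38 and −2.81), and the L-type pore Cacna1d (−1.17 and −1.09). The pore genes of P/Q-type and N-type channels, Cacna1a (−0.86 and −0.88) and Cacna1b (−0.17 and −0.30), were not called. With exon counts Cacna1g had −1.66 and Cacnb3 −1.88, while Cacnb4 moved to −0.84.

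Potassium channel subunits were spread over 60 genes with a median of 0.25, and 14 were high and 8 low. Kcnh7 (2.92 and 3.13) and Kcnh3 (−3.03 and −2.94), both of the ether-a-go-go superfamily, were the extremes, and Kcnab2, a beta subunit, held most footprints (0.67 and 0.52). The delayed rectifiers Kcna2 (2.72 and 2.42) and Kcna1 (1.70 and 1.22) were high over CDSs but had −1.03 and −1.21 over exons, whereas Kcna3 had 2.37 and 2.39, with 2.96 over exons. The list's median was −0.41 over exons. Voltage-gated sodium channel genes had a median of 0.55 over 9 genes. The beta subunits Scn2b (1.50 and 1.68), Scn3b (1.28 and 1.14) and Scn4b (1.05 and 1.17) were high, while the pore genes Scn8a, Scn3a and Scn1a lay between 0.10 and 0.55. The pore gene Scn7a was high (1.29 and 1.42), and Scn2a1, which that list did not hold, had 0.98 and 0.87. Over exons Scn2b, Scn3b and Scn4b had −0.62, −0.95 and −0.93, so their high calls rested on the CDS counts, and the list's median was −0.17.

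Pumps that maintain the ion gradients were more uniform (SD across genes 0.57, against 0.99 for all genes). Of 13 sodium-potassium and calcium pump genes, 7 were high and 0 low, with a median of 1.04. The plasma membrane calcium pumps Atp2b1 to Atp2b4 were all high, at 1.07, 1.14, 1.22 and 1.42, and so was the endoplasmic reticulum pump Atp2a2 (1.07 and 1.03). The sodium pump beta subunits Atp1b1 (1.16 and 1.16) and Atp1b2 (1.19 and 0.88) were high. The lowest was Atp2a3, a calcium pump of internal stores, at −0.35 and 0.12. With exon counts the median of the pumps was 0.51, and 2 of the 7 high genes stayed over 1. The vacuolar proton pump, which acidifies synaptic vesicles and lysosomes, had 4 high and 1 low of 19 genes and a median of 0.60 (0.82 over exons), from Atp6v0a2 (−0.88 and −1.31) to Atp6v1a (1.54 and 1.63), with Atp6v1b2, the richest, at 0.91 and 0.94, and all 4 high genes stayed over 1 with exon counts.

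The 181 solute carriers had a median of 0.03, 30 high genes (16.6%) and 18 low (9.94%). Slc8a1 was their highest, Slc1a2 their richest in footprints, and Slc6a8, the creatine transporter, was lowest at −3.38 and −3.37 (−3.48 over exons). Only 4 of the 30 high carriers stayed over 1 with exon counts, among them the proton exchanger Slc9a7 (3.02 and 2.84, 3.51 over exons), whereas 14 of the 18 low ones stayed under −1. The mitochondrial carriers of the inner membrane had a median of −0.04 over 32 genes, from Slc25a23 (−2.60 and −2.96) to Slc25a32 (1.62 and 1.15). Slc25a4, the adenine nucleotide translocator with most footprints, had 0.10 and 0.00.

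The scaffolds of the postsynaptic density, which anchor glutamate receptors, were low or near the average. Of 15 genes, 7 were low and 0 high, with a median of −0.64, and no gene lay between −1.35 and −0.64. All 3 Shank genes were low, with Shank1 at −3.08 and −3.31, Shank3 at −2.24 and −2.36 and Shank2 at −1.47 and −1.66. Dlg4 (PSD-95) was low at −2.20 and −2.28, while its paralogues Dlg1, Dlg2 and Dlg3 lay between 0.08 and 0.95. Dlgap3 (−3.33 and −3.39) and Dlgap4 (−1.25 and −1.46) were low, and Dlgap1 and Dlgap2 had 0.22 and 0.62. Agap2, a GTPase-activating protein of the density, had −2.65 and −2.72, and the adaptors Homer1, Homer2 and Homer3 had 0.87, 0.64 and −0.64. Shank1 had 547 and 280 footprints for 5141 and 6326 RNA-Seq counts, and Dlgap3 521 and 281 against 5801 and 6701. All 7 low scaffolds stayed under −1 with exon counts, when the median was −1.28.

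On the presynaptic side, 1 of 13 active zone scaffolds was high, Erc1 (1.19 and 1.02), and 3 were low, the liprins Ppfia4 (−2.52 and −2.37), Ppfia1 (−1.58 and −1.32) and Ppfia3 (−1.17 and −1.19). Piccolo (Pclo), the richest in footprints, had 0.74 and 0.81 and bassoon (Bsn) 0.16 and 0.04. Membrane proteins of synaptic vesicles had a median of 0.72, with 4 high and 0 low of 16 genes, and Slc17a7 (VGLUT1), which fills vesicles with glutamate, was the gene farthest under 0 (−0.97 and −0.97). Rab3c, given below, was their highest, and Syp, the richest, lay at 0.74 and 0.83. Over exons the median of these vesicle proteins was 0.16, and 1 of the 4 high genes stayed over 1. Synaptotagmins, the calcium sensors of fusion, had 6 high and 0 low of 15, from Syt7 (−0.93 and −0.88) to Syt2 (1.76 and 1.93), which was 1.32 over exons. Syt1, the sensor of fast release and the richest, was also high (1.76 and 1.76) and had 0.40 over exons. The median of the synaptotagmins was 0.45 over CDSs and 0.12 over exons, where 3 of the 6 high genes stayed over 1.

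The SNARE machinery that fuses vesicles had 8 high and 4 low of 28 genes and a median of 0.75. The syntaxin Stx1a had −0.04 and −0.11, and the plasma membrane syntaxins Stx3 (−1.67 and −1.47) and Stx4a (−2.61 and −2.75) were low. The priming factors Unc13b (−1.13 and −1.09) and Unc13c (−1.32 and −1.22) were low and Unc13a had −0.47 and −0.52. With exon counts the list's median was −0.22 and 1 of its 8 high genes stayed over 1. Snap25, described above, was its richest gene.

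Rab GTPases, which direct membrane traffic, had 18 high genes of 42 (42.9%, beside 11.6% of all genes) and 3 low, and a median of 0.82. Rab3c (3.12 and 3.01) was highest, Rab36 (−0.87 and −1.64) lowest and Rab3a, the abundant Rab of synaptic vesicles, had 0.83 and 0.89. This list depended strongly on the RNA measure. Over exons its median was −0.11, 2 of the 18 high genes stayed over 1, namely Rab30 (1.71) and Rab11a (1.30), and Rab3c had −0.71. The median log2 exon to CDS ratio of Rab genes in the inputs was 1.39, against 0.59 for all genes.

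**Figure D4:**
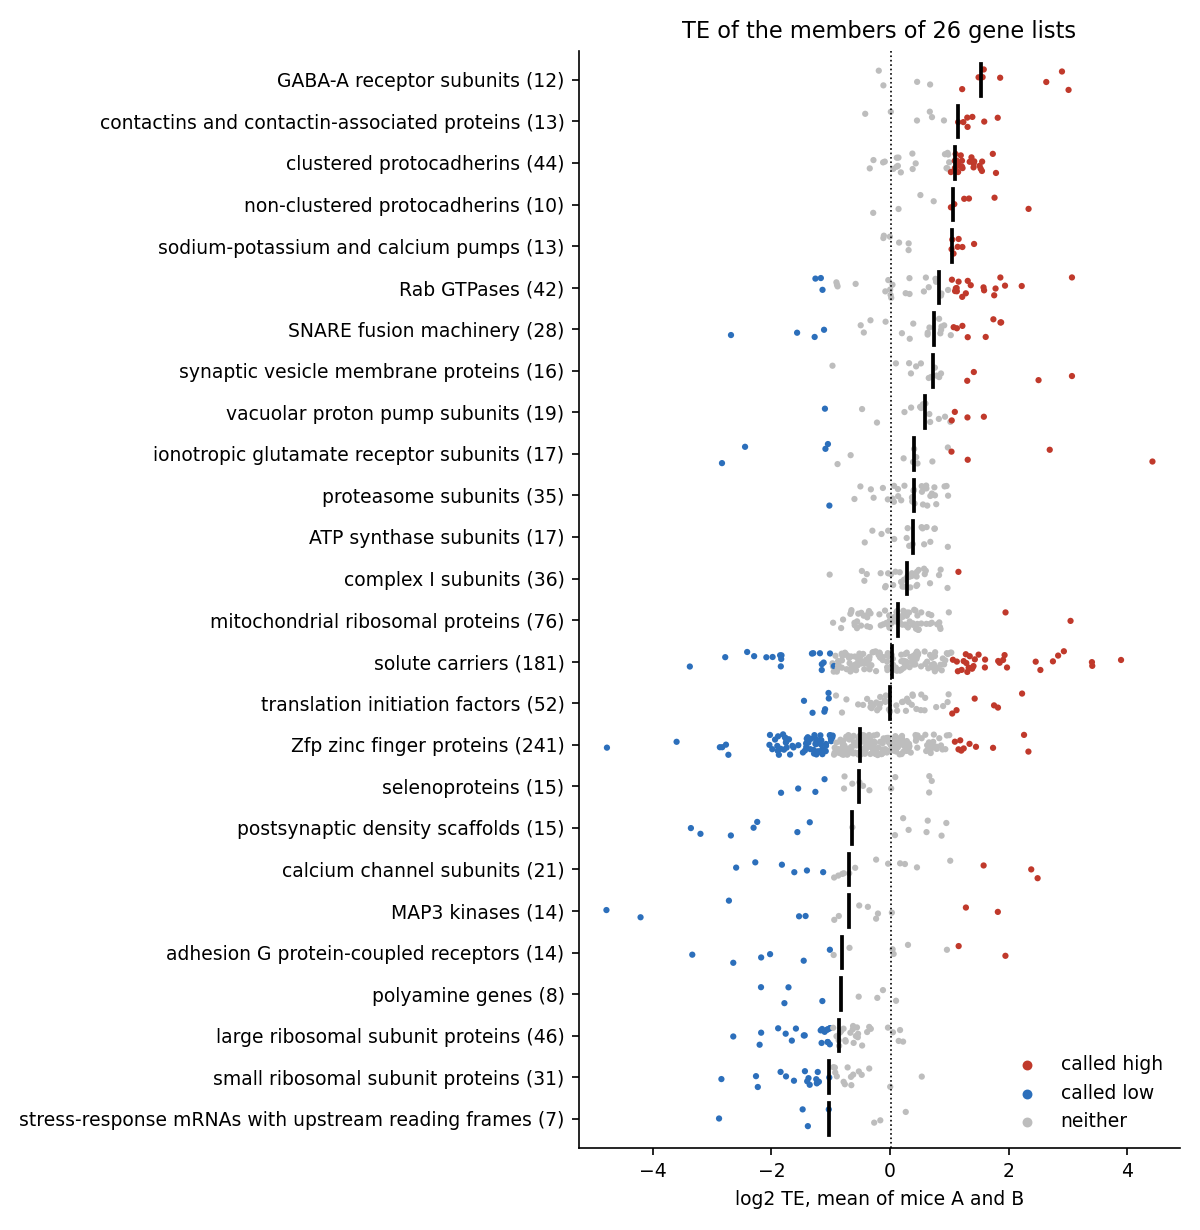
Mean log2 TE of mice A and B (x axis) for each member of 26 gene lists (rows, with the number of genes), coloured red when called high, blue when called low and grey otherwise. Black bars mark list medians, which run from −1.03 for the stress-response mRNAs to 1.53 for GABA-A receptor subunits, and the dotted line marks the median of all genes.

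Adhesion molecules of axons and synapses differed by family. Contactins and contactin-associated proteins, which link axons to glia and to other axons, had 7 high and 0 low of 13 genes and a median of 1.15. Cntnap5a (1.93 and 1.70) was highest, Cntn1 (1.40 and 1.37) had most footprints, and Cntnap1, the paranodal partner of contactin, was lowest (−0.38 and −0.46). With exon counts the median was 1.22 and 6 of the 7 high genes stayed over 1.

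The clustered protocadherins, surface proteins that give neurons individual identities, had 25 high and 0 low of 44 genes, a median of 1.09 and 1.78 over exons. Their values ran from Pcdhb17 (−0.47 and −0.22) to Pcdhb16 (1.87 and 1.70), and Pcdhgc5 had most footprints (1.39 and 1.30). Members of the alpha and gamma clusters share their constant exons, and reads of these exons cannot be assigned to 1 gene, so these values are not independent of each other. The non-clustered protocadherins had 6 high and 0 low of 10, namely Pcdh19 (2.36 and 2.31), Pcdh7 (1.75 and 1.77), Pcdh20 (1.35 and 1.31), Pcdh1 (1.29 and 1.21), Pcdh18 (1.02 and 1.14) and Pcdh17 (1.09 and 0.96). Over exons their median was 0.75, and 3 of the 6 stayed over 1. The other members were Pcdh8 (0.74), Pcdh9 (0.51), Pcdh10 (0.14) and Pcdh15 (−0.28). Classical and related cadherins lay closer to the background, with 2 high and 1 low of 15 genes (13.3% high) and a median of 0.41 (0.84 over exons). They ran from Cdh22 (−1.93 and −2.16) to Cdh12 (2.31 and 2.66), with Cdh2, N-cadherin, the richest at 0.87 and 0.73.

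Neurexins, neuroligins and related synaptic organizers had 5 high and 2 low of 18 genes. Nrxn3 (1.46 and 1.54) was high, whereas Nrxn2 was low (−1.09 and −1.18). Nlgn2, the neuroligin of inhibitory synapses, was low as well (−1.23 and −1.17), and Slitrk4 was the highest (2.03 and 1.79). Over exons 1 of the 5 high genes, Slitrk4 (2.13), stayed over 1, Nrxn3 had 0.78, and the list's median was 0.42 against 0.70 on CDS counts. The long adhesion G protein-coupled receptors lay lower, with 6 low and 2 high of 14 and a median of −0.82 (−0.55 over exons). Celsr3 (−3.25 and −3.42), which guides forebrain axon tracts, and the brain-specific receptors Bai2 (−2.56 and −2.73) and Bai1 (−2.10 and −2.25) were low and kept exon-based values of −2.92, −1.90 and −1.65. Celsr1 was called high although mouse A had 0.97 and mouse B 2.92, and Celsr2, the richest, had 0.28 and 0.32.

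Guidance molecules had genes at both ends. Of 27 semaphorins and plexins, 6 were high and 9 low. Of the secreted class 3 semaphorins, Sema3a (2.03 and 2.18), Sema3c (1.46 and 0.89), Sema3d (1.79 and 2.72) and Sema3e (1.78 and 1.94) were high and Sema3f was low (−1.07 and −1.31). The membrane-bound Sema5a (2.79 and 2.71) and the receptor Plxna4 (1.77 and 1.73) were the other high genes. The low genes included all 3 B-type plexins, Plxnb1 (−1.04), Plxnb2 (−1.20) and Plxnb3 (−1.24), and the membrane-bound Sema4g (−2.33 and −2.89), while Sema7a, the richest, had −0.06 and −0.11. Over exons 3 of the 6 high and 3 of the 9 low genes stayed past 2-fold, and the median moved from −0.24 to −0.39. Among ephrins and their receptors, 4 of 15 were high, the ephrin Efna5 (1.73 and 2.22) and the A-type receptors Epha6 (1.86 and 2.03), Epha4 (1.95 and 1.90) and Epha3 (0.84 and 1.29), and 1 was low, the B-type receptor Ephb6 (−2.03 and −1.42). Over exons Efna5 had −0.64, the other 4 stayed past 2-fold, and the median was −0.43 against −0.02 on CDS counts.

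Kinase cascades held Map3k10, the lowest gene measured, and several high ones. The MAP3 kinases had a median of −0.69 (−0.59 over exons) with 5 low and 2 high of 14. Besides Map3k10 and Map3k15, the low genes were Map3k11 (−2.83 and −2.60), the axonal injury kinase DLK (Map3k12, −1.39 and −1.67) and Map3k3 (−1.64 and −1.21), and the high genes were Map3k2 (2.04 and 1.59) and Map3k13 (1.41 and 1.15), which had −0.86 and 0.13 over exons. Downstream, 5 of 24 MAP kinase cascade genes were high and 9 low, and members differed. Mapk3 (ERK1) had −1.22 and −1.04 and Braf 2.35 and 2.06, although Braf lay at −0.49 over exons. Map2k6 had 2.32 and 2.36 (2.19 over exons) and its relative Map2k3 −1.48 and −1.96 (−1.73), and the upstream kinase Map4k2 was the lowest of these genes (−2.24 and −2.60).

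CaM kinases had 4 high and 0 low of 14, from Camk1 (−0.60 and −0.69) to Camk4 (2.43 and 2.57), with Camk2a the richest, and none of the 4 stayed over 1 with exon counts, when the list's median was −0.12. Heterotrimeric G protein subunits had a median of 0.48 (−0.13 over exons), from Gna12 (−1.29 and −1.77) to Gnaq (1.90 and 1.60), with Gnas, the richest, at −0.10 and −0.08.

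Several groups of nuclear regulators had more low than high genes, as did all genes together (15.6% low and 11.6% high). Of 241 zinc finger genes of the Zfp, Zkscan and Zscan series, 68 were low (28.2%) and 10 high (4.15%), with a median of −0.50. With exon counts 42 of the low ones stayed under −1. With a minimum of 200 counts the list's median was −0.27, against 0.09 for all genes. Zfp523 was lowest, Zkscan1 highest (2.31 and 2.35, 0.10 over exons) and Zfp365 richest in footprints (−1.10 and −1.23). Histone lysine methyltransferases and demethylases had 10 low (26.3%) and 1 high (2.63%) of 38. Dot1l, which methylates lysine in the core of histone H3, had −3.52 and −2.94, the demethylase Kdm6b −3.06 and −2.36, the richest member Kdm5b 0.69 and 0.66 and Setd7 1.20 and 1.25. Chromatin remodellers had 8 low (20%, near the share of all genes) and 2 high (5%) of 40. They ran from Chd3 (−2.79 and −3.01) to Smarcad1 (1.35 and 0.93), with Smarca2, the richest, at 0.07 and −0.02. Over exons 7 of the 10 low histone enzymes and 3 of the 8 low remodellers stayed under −1, and Setd7 had −1.24. By contrast, immediate early genes, which neuronal activity induces, had 1 high and 0 low of 19 and a median of 0.40 (0.06 over exons). Jund (−0.91 and −0.96) was their lowest, Nr4a3 (1.46 and 1.08) their highest and Egr1 (0.65 and 0.43) the richest in footprints. Homeobox, Sox, Fox and Pou transcription factors also had more high than low genes, 9 and 4 of 43 (median 0.15, −0.48 over exons). So did core snRNP and LSm proteins, with 3 high and 1 low of 24.

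Ribosomal protein genes lay low on CDS counts. Of 31 genes for small ribosomal subunit proteins, 16 were low and 0 high, with a median of −1.02. Of 46 for the large subunit, 20 were low and 0 high, with a median of −0.86. The values ran from Rps23 (−2.71 and −2.97) to Rps27l (0.67 and 0.40) in the small and from Rpl31 (−2.53 and −2.75) to Rpl38 (0.27 and 0.17) in the large subunit, and the members with most footprints, Rps6 (−0.66 and −0.77) and Rpl4 (−0.67 and −0.83), were not called. Ribosomal protein mRNAs are known for short UTRs. With exon counts the medians were −0.26 and −0.17, and 5 and 3 genes stayed under −1. Ribosomal protein genes have many processed pseudogenes with which reads can be shared, so single values are uncertain.

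Elongation factors and other genes whose mRNAs start with a terminal oligopyrimidine (TOP) tract, through which mTOR controls translation, had 3 low and 0 high of 14 genes. Eef1a1 had −1.10 and −1.25, Eef1g −1.48 and −1.54, Eef2 −0.75 and −0.78 and Nap1l1, the highest, 0.85 and 0.93. Eef1a2, the richest, had 0.19 and 0.28. The third low gene was Hnrnpa1 (−1.48 and −1.62), which shares sequence with many pseudogenes. With exon counts 0 of these 3 stayed under −1, Eef1a1 had −0.51 and Eef1g −0.72, and the list's median moved from −0.69 to 0.08. The initiation factors, as a contrast, had 6 high and 6 low of 52 and a median of −0.01 (0.33 over exons). Eif5a2 (2.46 and 2.00) was highest, Eif4g2, which lacks the eIF4E-binding region of its relatives, lowest (−1.39 and −1.51), and the helicase Eif4a2 richest in footprints (0.47 and 0.57). Aminoacyl-tRNA synthetases lay at a median of −0.13 (0.33 over exons), from Aars2 (−1.35 and −1.27) to Dars (1.04 and 0.86), with Nars, the richest, at 0.55 and 0.72.

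Genes with textbook forms of translational control were mostly under the median. Among 7 stress-response mRNAs with upstream reading frames, 4 were low. Atf4, the transcription factor of the integrated stress response, had 217 and 115 footprints for 1882 and 1823 RNA-Seq counts and a log2 TE of −2.97 and −2.80 (−2.27 over exons). Ifrd1 had −1.50 and −1.45, Ibtk −1.51 and −1.26 and the kinase Eif2ak4 (GCN2) −1.18 and −0.89, while Ppp1r15b, Bace1 and Eprs had −0.27, −0.16 and 0.26. Over exons 2 of the 4 stayed under −1 and the median was −0.83.

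Messenger RNAs with iron-responsive elements had 2 low and 1 high of 7. Ferritin mRNAs carry the element in the 5′ UTR, where iron regulatory proteins block initiation. Fth1 had 5149 and 2438 footprints for 21263 and 23027 RNA-Seq counts, and its log2 TE was −1.90 and −2.05, and Ftl1 had −2.12 and −1.95, both low and at −1.31 and −1.69 over exons. Tfrc, the transferrin receptor, carries its elements in the 3′ UTR, where they stabilize the mRNA, and was high (1.15 and 0.99, 0.44 over exons). Of the others, Epas1 had −0.16, Slc11a2 −0.55 and Slc40a1 −0.57. Ferritin genes also have pseudogenes that can take reads.

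The polyamine genes, of which Oaz1 and its relatives are read through a programmed frameshift, had 4 low of 8. These were Oaz1 (−2.14 and −2.21), the acetyltransferase Sat1 (−1.70 and −1.86), the oxidase Smox (−1.53 and −1.90) and ornithine decarboxylase Odc1 (mean −1.14). Oaz2, Azin1, Sms and Srm had −0.53, −0.21, −0.12 and 0.10. Over exons 2 of the 4 stayed under −1, Sat1 (−1.64) and Smox (−1.03). Oaz1 was not among them, and Odc1 had −0.65. The list's median was then −0.89 against −0.83 on CDS counts. Selenoprotein mRNAs, in which a stop codon is read as selenocysteine, had 4 low and 0 high of 15 and a median of −0.52 (−0.53 over exons, with 3 of the 4 still under −1). Sepw1, which also had most footprints, was lowest (−1.87 and −1.81), followed by Sephs2 (−1.37 and −1.73), Sepp1 (−1.08 and −1.44) and Gpx4 (−1.06 and −1.14), and the deiodinase Dio2 was highest (0.97 and 0.44).

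The large complexes of metabolism and protein turnover kept to a narrow band near the average. ATP synthase had 0 high and 0 low of 17 genes, with a median of 0.38 (SD across genes 0.40), from Atp5sl (−0.34 and −0.51) to Atp5h (0.93 and 1.02), and the catalytic subunit Atp5a1, the richest, had 0.35 and 0.42. Complex I of the respiratory chain had a median of 0.29 (SD 0.43) over 36 genes, from Ndufs5 (−0.72 and −1.32) to Ndufc2 (1.10 and 1.20), its 1 high gene, with Ndufa4, the richest, at 0.53 and 0.20. TCA cycle enzymes had no call among 18 genes (median 0.29, SD 0.43), nor did the CCT chaperonin and prefoldin among 13 (median 0.34, SD 0.46). The former ran from Idh2 (−0.64 and −0.96) to Idh3a (0.95 and 0.96), and the latter from Pfdn5 (−0.45 and −0.62) to Pfdn4 (0.97 and 0.99), with Cct8 (0.56 and 0.61) the richest. The proteasome had a median of 0.40 over 35 genes and 1 low gene, the immunoproteasome subunit Psmb10 (−0.88 and −1.17), while Psmd11 was highest (0.94 and 1.02) and Psmd2 richest (−0.29 and −0.26). Mitochondrial ribosomal proteins, unlike their cytosolic counterparts, had 0 low and 2 high of 76, Mrpl50 (2.46 and 3.63) and Mrpl44 (1.61 and 2.29), and a median of 0.13, and Mrps26 was lowest (−0.86 and −1.06). With exon counts the medians of ATP synthase, complex I, the chaperonin list and the proteasome moved up to 1.00, 1.06, 1.03 and 1.08.

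Families sharing the letters of their symbols were ranked without regard to function. There were 163 such stems with at least 8 genes each. The lowest medians belonged to Setd (−1.34, 5 of 8 genes low), Mgat (−0.94), Rps (−0.91), Gtpbp (−0.87), Rpl (−0.85), Dennd (−0.84), Inpp (−0.77) and Mfsd (−0.72). In the same order, these medians were −1.12, −1.27, −0.24, −0.03, −0.10, −0.70, −0.53 and −0.45 over exons. In the Setd group of SET-domain methyltransferases, Setd1a had −2.01 and −2.18, the richest member Setd3 −0.64 and −0.60 and Setd7 1.20 and 1.25. The Mgat glycosyltransferases, which branch N-glycans in the Golgi, reached from Mgat1 (−3.16 and −3.58), which starts the branches, to Mgat4c (1.57 and 1.41), with Mgat5 at 1.08 and 1.06. The Dennd exchange factors for Rab proteins held a pair of opposite relatives, Dennd5a (−2.39 and −2.45) and Dennd5b (2.21 and 1.90), the latter also richest in footprints. Among the Gtpbp GTP-binding proteins, Gtpbp6 had −2.36 and −2.61, Gtpbp4 0.72 and 0.70 and Gtpbp10 0.74 and 0.88. The inositol phosphatases ran from Inpp5e (−1.89 and −1.86) to Inpp4b (0.56 and 1.05), with Inpp4a at 0.82 and 0.76, and the Mfsd transporters from Mfsd12 (−1.39 and −1.21) to Mfsd8 (0.53 and 0.43), with Mfsd6 at −0.03 and −0.04.

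The highest stem medians belonged to Pcdhga (1.21, 9 of 12 high), Pcdh (1.08), Klf (1.01), Rap (0.76), Scn (0.74), Hspa (0.69), Exoc (0.63) and Dnajb (0.61). In the same order, these medians were 1.95, 0.74, −0.08, −0.43, −0.16, 0.94, 0.61 and 0.58 over exons. The Klf stem holds Krüppel-like transcription factors, of which 6 of 12 were high and 1 low, from Klf15 (−0.97 and −1.18) to Klf12 (2.84 and 2.01), with Klf9 at 0.97 and 0.93. Over exons its median was −0.08, although Klf7 (1.90 and 1.97) and Klf5 (1.73 and 1.19) then had 2.49 and 2.19. Rap GTPases and their regulators ran from Rap1gap (−0.61 and −0.74) to Rap2b (1.15 and 1.36), with Rap1gds1 at 0.90 and 1.03. Heat shock 70 genes had 3 high and 0 low of 10, from Hspa12b (−0.72 and −1.22) to Hspa13 (1.96 and 1.68), and an exon-based median of 0.94. The exocyst ran from Exoc7 (0.02 and −0.03) to Exoc8 (1.26 and 1.28), with Exoc3 at 0.63 and 0.47, and the Dnajb co-chaperones from Dnajb5 (−0.46 and −0.18) to Dnajb14 (2.80 and 2.42), with Dnajb6 at 0.90 and 0.90. In the Pcdhga cluster, Pcdhga4 (1.11 and 0.74) was lowest and Pcdhga1 (1.70 and 1.41) highest, and Pcdhga11 (1.29 and 1.13) had most footprints.

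Paralogues within a family could be far apart. Values of mice A and B did not overlap between the vesicular glutamate transporters Slc17a6 (0.70 and 0.81) and Slc17a7 (−0.97 and −0.97), nor between the elongation factors Eef1a2 (0.19 and 0.28), the form of neurons and muscle, and Eef1a1 (−1.10 and −1.25). The SV2 vesicle proteins were ordered Sv2a (0.66 and 0.73), Sv2b (1.33 and 1.49) and Sv2c (2.51 and 2.50) in both mice. Among alpha-2-delta subunits, Cacna2d1 lay more than 2 log2 units above Cacna2d2 (0.30 and 0.04) and Cacna2d3 (−0.07 and 0.00), which differed from each other by less. Kcnh1 (0.27 and 0.62) lay between Kcnh7 and Kcnh3, and Map3k9 (−1.02 and −0.86) above Map3k11 and Map3k10. Of the Rab3 genes, Rab3b (0.67 and 0.63) and Rab3a lay under Rab3c, and Rab3d, with 57 footprints, had no TE. Smaller gaps separated the actins Actb (1.21 and 0.89) and Actg1 (0.56 and 0.53) and the kinases Camk2a (0.56 and 0.36) and Camk2b (0.56 and 0.54), and in the last pair the mice overlapped. Actin genes are also nearly identical in sequence. Exon counts kept the order of the GluN2 genes and of Sv2c over Sv2a, Kcnh7 over Kcnh3 and Eef1a2 over Eef1a1. They reversed Rab3c (−0.71) and Rab3a (1.04), Sv2b (0.47) and Sv2a (0.59), and Cacna2d2 (0.28) and Cacna2d3 (0.64), and narrowed the lead of Cacna2d1, which had 1.18. Kcnh1, Camk2a and Camk2b fell under 0, to −0.49, −0.51 and −0.08.

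**Figure D5:**
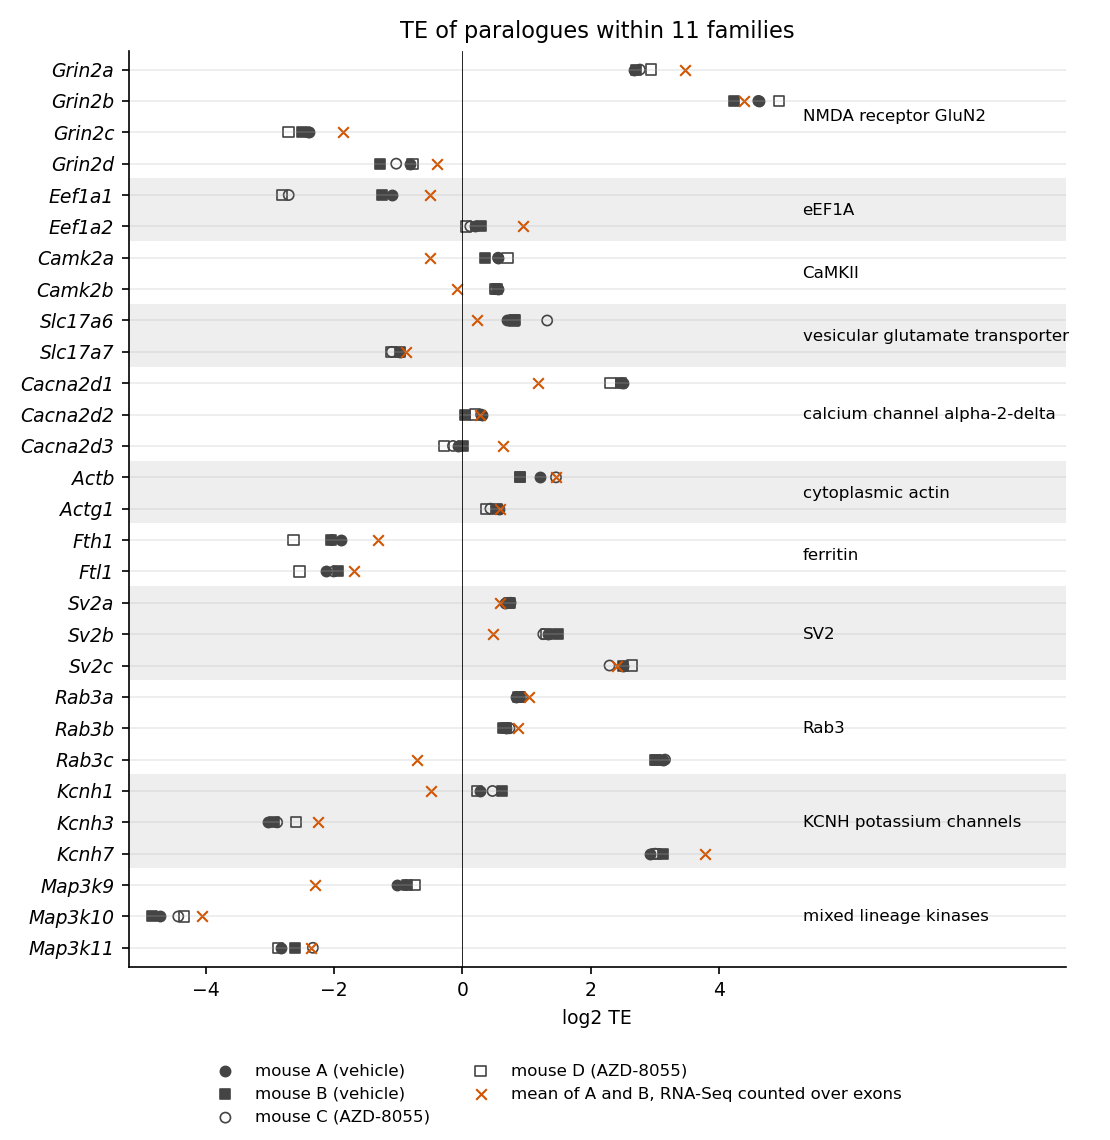
The log2 TE (x axis) of 29 paralogues in 11 families in mice A and B (filled) and in the AZD-8055-treated mice C and D (open), with crosses for the exon-based mean of A and B. GluN2 genes span the range from Grin2c to Grin2b, and the open symbols of Eef1a1 stand apart from the filled ones, at −2.71 and −2.82 in mice C and D.

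What the ends shared beyond TE was described from gene length and from libraries of mice E and F, which had no part in it. Gene length, from the first to the last base of the gene in GRCm38, was known for 10831 of the members. Its median was 54.4 kb for high genes, 20.9 kb for low genes and 26.8 kb for the rest, and 59.1 kb in the highest decile of TE against 19.6 kb in the lowest. Of the 15 highest genes 11 were longer than 100 kb, and of the 15 lowest 1 was, Map3k15. The quartiles of high genes (23.3 to 138 kb) and low genes (10.2 to 48.0 kb) overlapped, and Spearman's rho of TE with length was 0.181 across these genes, as a description. The RNA-Seq inputs of mice E and F gave high genes a median of 32.0 CPM on CDSs and low genes 66.2, against 38.4 for the rest. These inputs count the same CDSs as the RNA-Seq that TE divides by, so this difference is not independent of TE.

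Polysomes of Camk2a-expressing neurons, pulled down in mice E and F, gave a log2 ratio of IP to input counts on CDSs. Over high genes the median of this ratio reached −1.42 (mouse E) and −1.64 (mouse F), against −0.36 and −0.36 over low genes and −0.31 and −0.38 over the rest. High genes had lower IP to input ratios in both mice, which is opposite in direction to their footprints per RNA-Seq count. With exon counts in IP and input, the medians of high genes were −0.48 and −0.54, those of low genes −0.38 and −0.32 and those of the rest −0.14 and −0.17. Most of the gap between the ends was thus absent when reads on UTRs were counted. The IP covers 1 class of neuron and the TE all cells, and the part of cell type in these ratios was not tested.

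The ends recurred in the other pair of mice. Mice C and D had been given AZD-8055 and shared no library with mice A and B. Of 9890 members that also reached 75 counts in each assay there, 1101 were high (11.1%) and 1485 low (15%). Of the 1236 high genes of mice A and B that could be tested, 985 were high again (79.7% of these, and 89.5% of the treated list). Of 1472 low genes, 1313 were low again (89.2% and 88.4%). By this edgeR test, 0 genes that were high in mice A and B were low in mice C and D, and 0 went the other way. Across genes, log2 TE in the pairs of mice had a Pearson's r of 0.974 and a Spearman's rho of 0.971 (n = 9890 genes, which share CDS length and base composition).

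The threshold of 75 counts removed genes from both ends. It left out 1228 genes with enough RNA-Seq counts and too few footprints, and 242 with enough footprints and too few RNA-Seq counts. From the summed normalized counts, 676 of the former had a log2 TE under −1 and 225 of the latter over 1. Both groups were selected by a low count in 1 assay, which by itself favours such values. How many of these genes belong to either end was not tested. Genes just inside the footprint threshold (75 to 80 footprints, 150 genes) had a median log2 TE of −0.50 and those just outside (70 to 74, 124 genes) −0.60. Among the 20 left-out genes with at least 1000 RNA-Seq counts were Snhg11, a non-coding host of small nucleolar RNAs, with 42 and 20 footprints against 1710 and 2154 RNA-Seq counts, and the growth factor gene Gdf1, with 5 and 5 against 942 and 1087. Gdf1 shares its transcript with an upstream gene, so its counts are uncertain.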

How the data were processed

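Ligation-free ribosome profiling and RNA-Seq were performed on the same lysates of mice A to D, and RNA-Seq on the RiboTag input and IP of mice E and F. The submitters' processing notes name Bowtie2, TopHat2, HTSeq and the build mm10, with no version, and the annotation is not given in the sources used here. The authors deposited raw read counts per gene over CDSs (20504 genes) and over exons (23352 genes), and the deposited counts were used unchanged.

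Each log2 TE was the log2 of footprints over RNA-Seq counts of a mouse, after median-ratio size factors over the 8 libraries of mice A to D. Calls came from edgeR 4.0.16 (R 4.3.3; TMM, quasi-likelihood test, mouse and assay as terms) on the libraries of mice A and B, with a minimum of 75 counts in each assay. The study divided footprints by RNA-Seq in the same way. It used RiboDiff, which was not used here, to compare TE between AZD-8055-treated and control mice. The letter marks 1 animal in both assays, so the samples were paired by mouse, and the deviations between mice A and B correlated at 0.257 between assays over 10882 genes. RNA-Seq counts of mice A and B differed by more than sampling noise (3.94 chi-square per degree of freedom), as did footprints (3.50), so all libraries were counted. The block removes differences between the mice that both assays share. With 2 mice, p-values rest on how far footprints over RNA-Seq differed between these animals, with the spread pooled across genes. They do not measure the spread among animals in general. The script was tested on simulated counts. limma 3.58.1 and DESeq2 1.42.0 gave alternatives.

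Named genes were the 15 highest, the 15 lowest and the 15 with most footprints, the extremes and richest member of each list and of 16 symbol stems, every member of a list of up to 12, and the paralogues of 11 families, of which some are not reported here. Lists, families and members were chosen with earlier results of these data known. RefSeq (GRCm38.p6) gave gene spans and positions for 10831 of 10882 members by symbol. 27 symbols had been turned into dates, 20 of them with a TE, and these remain unnamed. The 4 libraries of mice E and F entered only the input CPM and the IP to input and exon to CDS ratios.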

Additional observations from a re-analysis of the deposited data

How the results depend on the processing

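With mice A and B, the counts of high and low genes stayed within 1.5 times of 1260 and 1703 under DESeq2 (1317 and 1657), limma-voom, RLE factors, total counts (1096 and 1898), a minimum of 200 counts (879 and 1183 of 8242 genes), all 8 libraries in 1 fit and exon counts for RNA-Seq. Without the block for the paired mouse they were 1255 and 1722. With 1 mouse left out and the spread pooled with mice C and D, they were 1322 to 1351 high and 1677 to 1766 low. They rose to 2819 and 2706 with no filter on counts, where 19084 genes were tested, and to 3987 and 4234 with no limit on the fold. Exon counts kept the number but not the genes, since 427 of the 1141 genes then high and 1027 of the 1726 then low were the same as with CDS counts. Of 72 genes that were extreme, richest in footprints or paralogues, the called ones whose sign they turned were Fut9 (−0.43), Rab3c (−0.71) and Map3k15 (0.68), and over all calls 348 high and 23 low genes crossed 0. The cause was not tested. The median log2 TE of all genes was −0.082 with total counts, 0.091 with 200 counts and −0.024 with exon counts, and lay between −0.0087 and 0.028 with 1 mouse left out. In mice C and D, alternatives chosen after seeing the data gave 683 high and 880 low genes with 200 counts, and 1092 to 1208 and 1482 to 1545 with 1 mouse left out. The smallest RNA-Seq sum among the 15 highest genes was 77, which limits the precision of such values.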

Other observations

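Other functional lists held values outside the report. Neuropeptides and granins were narrow (SD 0.59 over 23 genes, median 0.60), with 3 high and 1 low, from the prohormone convertase inhibitor Pcsk1n (−1.25 and −1.15) to the convertase Pcsk1 itself (1.93 and 1.83), with Cpe the richest in footprints. Collagens had 10 low and 3 high of 22 genes, from Col6a1 (−3.21 and −3.48) to Col7a1 (1.47 and 1.96), with Col25a1 at 1.61 and 1.69. The ubiquitin-conjugating enzymes had 7 high and 1 low of 29, from Ube2j2 (−2.05 and −1.90) to Ube2h (1.82 and 1.36), with Ube2n, the richest, at 1.47 and 1.37, and 0 of the 7 stayed over 1 with exon counts. The ubiquitin-specific proteases, which reverse this modification, had 8 low and 5 high of 43, from Usp21 (−2.43 and −2.73) to Usp9x (1.81 and 1.66). Kinesins ran from Kif1c (−3.33 and −3.65) to Kif2a (1.65 and 1.62), and Kif1a, the motor of synaptic vesicle precursors, had 0.22 and 0.23. The tubulins had 4 low of 13, with Tubg2 at −1.97 and −2.43 the lowest, Tuba4a the highest at 0.49 and 0.53 and Tubb4a the richest at 0.18 and 0.20. Autophagy genes ran from the protease Atg4d (−2.16 and −2.15) to Map1lc3b (1.22 and 1.15), an ATG8 protein of autophagosome membranes, and the receptor Sqstm1, the richest, had 0.25 and 0.34. The regulators FMRP, CPEB and Pumilio had a median of 0.47 on CDS counts and −0.20 over exons. They ran from Fxr2 (−1.11 and −1.19) to Cpeb3 (2.01 and 2.32), with Cyfip2, the richest, at 0.03 and −0.14. The Notch pathway had 6 low and 1 high of 20, from Dtx3 (−2.12 and −2.13) to Notch2 (1.09 and 1.18), with Numbl, the richest, at −0.57 and −0.49.

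TE differed between mice A and B by more than 2-fold for 79 of 10882 genes. The largest gap was that of F5, coagulation factor V, at 3.18 and 0.60, with 6 and 140 RNA-Seq counts. Fanca, a DNA repair gene, had −2.18 and −0.19 from 35 and 78 footprints, and the atypical cadherin Celsr1 0.97 and 2.92 from 177 and 352. In Fanca and Celsr1 the mice differed in footprints, and in F5 in RNA-Seq counts as well. These genes were few and mostly of low count, and the SD of the difference between mice over all genes was 0.28.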
